A study of Bos grunniens x Bos taurus and Bos grunniens with 6 samples.

Results

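Endothelial cells line the blood and lymph vessels of the testis, which run through the interstitium between the seminiferous tubules together with the Leydig cells. They hold together through VE-cadherin (CDH5), claudin 5 (CLDN5) and PECAM1, and they answer to vascular endothelial growth factor (VEGF) through the receptors KDR and FLT1 and to angiopoietins through TEK and its partner TIE1. Endoglin (ENG) is a co-receptor for BMP ligands, endomucin (EMCN) a sialomucin of capillary and venous endothelium, and von Willebrand factor (VWF) the clotting glycoprotein that endothelium stores in Weibel-Palade bodies and that platelets also carry. These 10 genes are widely used as markers of endothelium. They were selected by symbol, ignoring case, and stood on 11 of the 18918 gene rows of the FPKM table (fragments scaled to gene length and library depth, a level that can be compared between genes), because the symbol Flt1 is carried by 2 rows.

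The libraries came from testis tissue of 3 cattle-yak (TES5, TES6 and TES7), which are F1 males of the breed cross Gannan x Jersey with a Jersey sire and a Gannan yak dam, and of 3 Gannan yak (Yak8, Yak9 and Yak10). All 6 males were 4 years old, no treatment is named for either group, and each library was made from unsorted tissue cut from the middle of the testis of 1 animal. The groups came from different counties, the methods of the study give castration for the cattle-yak and euthanasia for the yak (the labels give castration for all), and the yak genome served as the reference for both, so hybrid origin cannot be told apart from these conditions. Cattle-yak libraries held 11175100 to 11834987 fragments on genes and yak libraries 12991641 to 13136129, and the members had 12 to 1932 fragments per library.

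The tissue carried the RNA of its main cell types. In cattle-yak the 8 rows of Leydig cell genes summed to 10468 to 12471 FPKM, against 3352 to 4889 in yak, and the 12 rows of Sertoli cell genes to 2914 to 3208 against 622 to 690. INSL3 carried most of the Leydig sum, with 10027 to 12067 FPKM in cattle-yak and 3282 to 4769 in yak. Of 7 germ cell genes 4 were called lower in cattle-yak (TNP1, ACR, PIWIL1 and SPACA1), SYCP3 was called higher (1.10), and DAZL (0.97) and SYCP1 (0.24) were not called. Their summed FPKM was 255 to 356 in cattle-yak against 5872 to 7166 in yak, and without TNP1, which carried most of it, 240 to 312 against 697 to 739. In such bulk samples fewer cells of a type and less RNA per cell cannot be told apart.

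The marker genes KDR, EMCN, CDH5, CLDN5, ENG and TIE1 were 2.38 to 3.70 times as abundant in cattle-yak testis as in yak by FPKM. VWF, by contrast, was 4.21 times as abundant in yak. Scaled to Sertoli, Leydig or myoid cell genes, all of these genes had estimates below yak. So did the median of all genes tested (−1.46, −1.24 and −1.30). Under these scalings EMCN never reached an adjusted p under 0.05, nor did CDH5, KDR and TIE1 relative to the Leydig list. Of the 10 rows with a mean FPKM of at least 0.5, limma called 6 higher and 1 lower in cattle-yak, which required an adjusted p under 0.05 together with a log2 (foldchange) beyond 1. Among all 15042 genes tested, 33.4% were called higher and 20.8% lower. By the adjusted p alone 7 members were higher and 1 lower, beside 52.6% and 29.2% of all genes. The median log2 (foldchange) on log2 (FPKM + 1) was 1.14 for the members and 0.51 for all genes tested. The values of the groups did not overlap in 9 of the 10 tested rows, nor in 84.1% of all genes tested. The plot of the levels by library shows VWF apart from the other members.

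**Figure D1:**
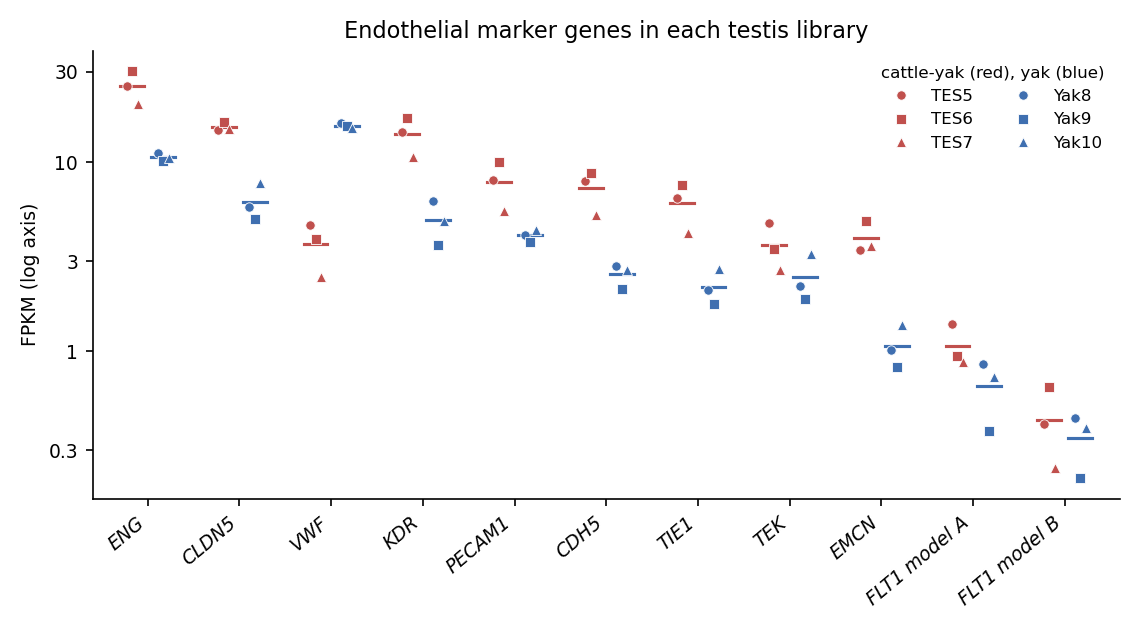
FPKM (log axis) of the 11 rows of the endothelial marker genes in each library, with cattle-yak in red, yak in blue, 1 symbol per animal and a bar at the group mean. ENG, CLDN5, KDR, CDH5, TIE1 and EMCN lie higher in every cattle-yak library than in any yak library, VWF lies at 15.1 to 16.05 in yak and 2.48 to 4.66 in cattle-yak, and TEK and FLT1 model B overlap.

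Among the VEGF receptors, KDR (ENSBGRG00000023842), the receptor through which VEGFA drives endothelial growth, had 14.4, 17.1 and 10.6 FPKM in TES5, TES6 and TES7 and 6.21, 3.64 and 4.91 in Yak8, Yak9 and Yak10. The lowest cattle-yak library was thus above the highest yak library. It was called higher, with a log2 (foldchange) of 1.35 and a standard error of 0.22 (adjusted p = 4.9e-04). FLT1, which binds VEGFA tightly and acts in part as a trap for it, was a gene of low level. The first of its gene models (ENSBGRG00000006167, here model A) had 1.39, 0.951 and 0.879 FPKM in the cattle-yak libraries and 0.859, 0.381 and 0.735 in the yak libraries. The groups did not overlap, but TES7 exceeded Yak8 by little, and the log2 (foldchange) of 0.33 ± 0.18 did not pass the test (adjusted p = 0.13). The second (ENSBGRG00000006327, model B) had 0.413, 0.646 and 0.241 FPKM in cattle-yak and 0.443, 0.213 and 0.395 in yak, with overlapping groups, and was under the minimum for the test. It rested on 12 to 31 fragments per library, and the 12 fragments in TES7 have an exact 95% Poisson interval of 6.20 to 21.0, which covers counting error only. How the authors' counting divided fragments between the 2 models is not given in the sources used here, so both levels are uncertain.

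The ratio of KDR to FLT1 model A within a library was 10.3, 18.0 and 12.1 in cattle-yak and 7.23, 9.57 and 6.68 in yak. A ratio of this kind does not change with the scaling of a library. Every cattle-yak library had the higher ratio, and the two-sided exact permutation test gave p = 0.1, below which 3 animals against 3 cannot go.

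Of the angiopoietin receptors, TIE1 (ENSBGRG00000010328), an orphan receptor that modulates TEK, had 6.45, 7.59 and 4.21 FPKM in cattle-yak and 2.12, 1.78 and 2.71 in yak. The groups did not overlap, with a log2 (foldchange) of 1.13 ± 0.22 (adjusted p = 1.4e-03), and without TES6 the value was 0.97 and no longer past 1. TEK (ENSBGRG00000000666), the receptor of the angiopoietins also known as TIE2, had 4.75, 3.49 and 2.68 FPKM in cattle-yak and 2.22, 1.90 and 3.29 in yak. Yak10 was above TES7, and the log2 (foldchange) of 0.42 ± 0.22 did not pass the test (adjusted p = 0.11). The ratio of TIE1 to TEK was 1.36, 2.18 and 1.57 in the cattle-yak libraries and 0.954, 0.937 and 0.824 in the yak libraries. The ratio was above 1 in every cattle-yak library and slightly below 1 in every yak library (p = 0.1, exact permutation test, two-sided). In each yak library the 95% Poisson intervals of the 2 genes overlapped, in Yak8 with 1.72 to 2.58 FPKM for TIE1 and 1.88 to 2.60 for TEK. Which of them was the more abundant in yak is therefore uncertain.

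ENG (ENSBGRG00000007082) was the most abundant member in cattle-yak, with 25.1, 30.3 and 20.3 FPKM, against 11.2, 10.1 and 10.5 in yak. The lowest cattle-yak value was well above the 3 yak values, which lay close together, and the log2 (foldchange) was 1.16 ± 0.15 (adjusted p = 1.4e-04). EMCN (ENSBGRG00000002544) had 3.43, 4.89 and 3.60 FPKM in cattle-yak and 1.01, 0.823 and 1.38 in yak. Its mean was 3.70 times as high in cattle-yak, the widest ratio among the members that were higher there, and its log2 (foldchange) was 1.26 ± 0.18 (adjusted p = 2.4e-04).

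Of the junction genes, CDH5 and CLDN5 were called higher and PECAM1 was not. CDH5 (ENSBGRG00000011034), the cadherin of endothelial adherens junctions, had 7.92, 8.73 and 5.28 FPKM in cattle-yak and 2.83, 2.13 and 2.70 in yak, and its log2 (foldchange) was 1.21 ± 0.20 (adjusted p = 5.2e-04). CLDN5 (ENSBGRG00000020524), the claudin of endothelial tight junctions, had 14.8, 16.2 and 15.0 FPKM in cattle-yak and 5.79, 4.99 and 7.73 in yak, and its log2 (foldchange) was 1.203 ± 0.16 (adjusted p = 1.5e-04). In neither gene did the groups overlap. The cattle-yak values of CLDN5 varied least among the members in that group, with a coefficient of variation of 5.06% against 19.7% to 46.9% for the other rows. PECAM1 (ENSBGRG00000011037), an adhesion molecule that leukocytes and platelets carry as well, had 8.05, 10.04 and 5.49 FPKM in cattle-yak and 4.14, 3.79 and 4.36 in yak. Again the groups did not overlap, and the adjusted p was 7.6e-03, but the log2 (foldchange) of 0.77 ± 0.20 stayed under 1. The ratio of CDH5 to PECAM1 was 0.983, 0.869 and 0.962 in cattle-yak and 0.684, 0.561 and 0.618 in yak (p = 0.1, exact permutation test, two-sided), so that the pair stood nearly level in cattle-yak, and PECAM1 prevailed in yak.

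VWF (ENSBGRG00000002102) went the other way, with 4.66, 3.94 and 2.48 FPKM in cattle-yak and 16.05, 15.6 and 15.1 in yak. It rested on 264 to 506 fragments in a cattle-yak library and on 1797 to 1932 in a yak library. The yak values were the tightest of any member, with a coefficient of variation of 3.07%, and every one was more than 3 times the highest cattle-yak value. The log2 (foldchange) was −1.85 ± 0.19 (adjusted p = 3.1e-05), and VWF stayed called lower when any 1 library was left out, with values from −2.00 to −1.65. The ratio of PECAM1 to VWF was 1.73, 2.54 and 2.21 in cattle-yak and 0.258, 0.243 and 0.289 in yak (p = 0.1, exact permutation test, two-sided). PECAM1 thus exceeded VWF in each cattle-yak library and stood well below it in each yak library.

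The order of the members by level differed between the groups, most for VWF and also for TEK against TIE1 and EMCN. In yak it was VWF, ENG, CLDN5, KDR, PECAM1, CDH5, TEK, TIE1, EMCN, FLT1 model A and FLT1 model B, with mean levels from 15.6 to 0.350 FPKM. Neighbours whose yak values overlapped were CLDN5 and KDR, KDR and PECAM1, CDH5 and TEK, TEK and TIE1, EMCN and FLT1 model A, and the FLT1 models. In cattle-yak the order was ENG, CLDN5, KDR, PECAM1, CDH5, TIE1, EMCN, VWF, TEK, FLT1 model A and FLT1 model B, from 25.2 to 0.434 FPKM. There the values of ENG and CLDN5, KDR and PECAM1, TEK and FLT1 model A, and the FLT1 models did not overlap, while the other 6 pairs of neighbours did.

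Summed over the 11 rows, the marker genes reached 91.4, 103.9 and 70.7 FPKM in cattle-yak and 52.9, 45.4 and 53.8 in yak (p = 0.1, exact permutation test, two-sided). Without VWF the sums were 86.7, 99.9 and 68.2 against 36.8, 29.8 and 38.7, a ratio of means of 2.42 in place of 1.75. VWF made up 5.10%, 3.80% and 3.51% of the sum in cattle-yak and 30.4%, 34.4% and 28.0% in yak. KDR made up 15.8%, 16.5% and 15.0% in cattle-yak and 11.7%, 8.03% and 9.12% in yak, and ENG 27.5%, 29.1% and 28.7% against 21.2%, 22.3% and 19.5%. CLDN5 made up 15.6% to 21.1% in cattle-yak, against 10.96% to 14.4% in yak. The shares of these 4 genes did not overlap between the groups, each with p = 0.1 in the exact permutation test (two-sided). The sum includes VWF, so the lower VWF in cattle-yak by itself raises the shares of the other rows. ENG and CLDN5 were 2.38 and 2.48 times as high in cattle-yak by mean FPKM, close to the 2.42 of the sum without VWF. Their higher shares are therefore no result separate from that of VWF. KDR was 2.86 times as high. Shares of the sum without VWF were not tested. All 11 rows together held 0.0117% to 0.0179% of the summed FPKM of a cattle-yak library and 0.00759% to 0.00889% of that of a yak library.

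**Figure D2:**
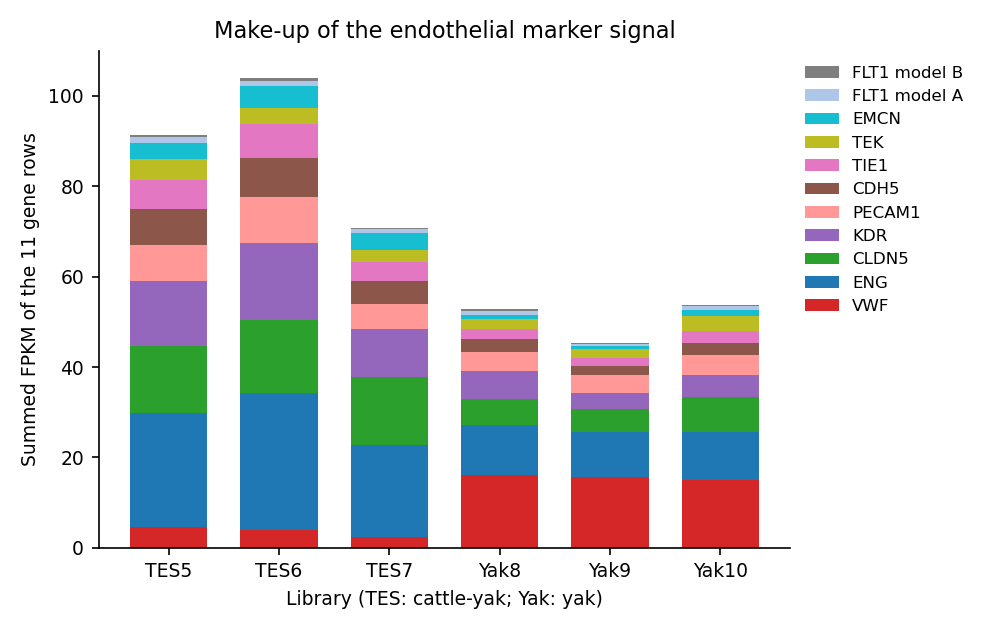
Stacked bars of the FPKM of the 11 rows in each library, starting at 0, with cattle-yak (TES) on the left and yak on the right. The bars reach 70.7 to 103.9 FPKM in cattle-yak and 45.4 to 53.8 in yak, and the VWF segment at the base is 28.0% to 34.4% of the bar in yak and 3.51% to 5.10% in cattle-yak.

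Of the 11 rows, 9 were lowest in TES7 and 8 highest in TES6, with EMCN and CLDN5 lowest in TES5 and VWF, TEK and FLT1 model A highest there. In yak, 10 of the 11 rows were lowest in Yak9, the exception being VWF, which was lowest in Yak10, while 6 rows were highest in Yak8 and 5 in Yak10. The median deviation of the 10 tested rows from the group mean, on the log2 (FPKM + 1) scale, was 0.08 in TES5, 0.25 in TES6 and −0.33 in TES7, and 0.03 in Yak8, −0.19 in Yak9 and 0.08 in Yak10. For all genes tested it stayed between −0.03 and 0.02. The 8 tested pericyte rows deviated by −0.02, 0.22 and −0.23 in the cattle-yak libraries, whereas the Sertoli list gave −0.11, 0.09 and 0.04, and the germ cell list 0.83, −0.11 and −0.79. VWF, TEK and FLT1 model A had the order TES5, TES6, TES7 from high to low. The medians of the germ cell list and of the 2 tested platelet rows (0.24, 0.06 and −0.30) had it too. Of these platelet rows SELP had that order, while ITGA2B was highest in TES6 (8.84, 9.59 and 7.33 FPKM). Some other vascular genes also had it, such as CLEC14A (15.3, 12.8 and 7.80) and THBD (22.8, 18.2 and 13.4), and others did not. The part of germ cell RNA in the VWF result was not tested.

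The fold changes depended on what the libraries were scaled to, since the median log2 (foldchange) of all genes moved from 0.51 to 0.01 with median-of-ratios scaling and to −1.46, −1.24 and −1.30 relative to the Sertoli, Leydig and myoid lists. With median-of-ratios scaling limma called none of the members higher and 1 lower, beside 17.7% higher and 27.7% lower among all genes. At an unadjusted p of 0.05 without a fold threshold, 6 members were then higher and 1 lower. Relative to the Sertoli list 4 members (VWF, TEK, PECAM1 and ENG) were called lower and none higher, beside 62.5% and 0.439% of all genes, and at an unadjusted p of 0.05 there were 9 lower and 0 higher. Relative to the Leydig and the myoid list 3 members (VWF, TEK and PECAM1) were called lower and none higher, beside 56.4% and 58% lower and 0.811% and 0.698% higher among all genes, and at an unadjusted p of 0.05 there were 6 and 9 lower and 0 higher. The share of all genes at the unadjusted p was not computed for these scalings. The counts of members at that p therefore cannot be set against a background. A scaling multiplies every gene of a library by 1 factor and so moves members and other genes nearly alike, and the median of the members lay 0.59 to 0.63 above that of all genes in these settings. The somatic lists themselves lay higher, with medians of 2.23 for Sertoli (12 of 12 rows called higher), 1.90 for Leydig (8 of 8) and 1.92 for myoid cells (7 of 7).

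**Figure D3:**
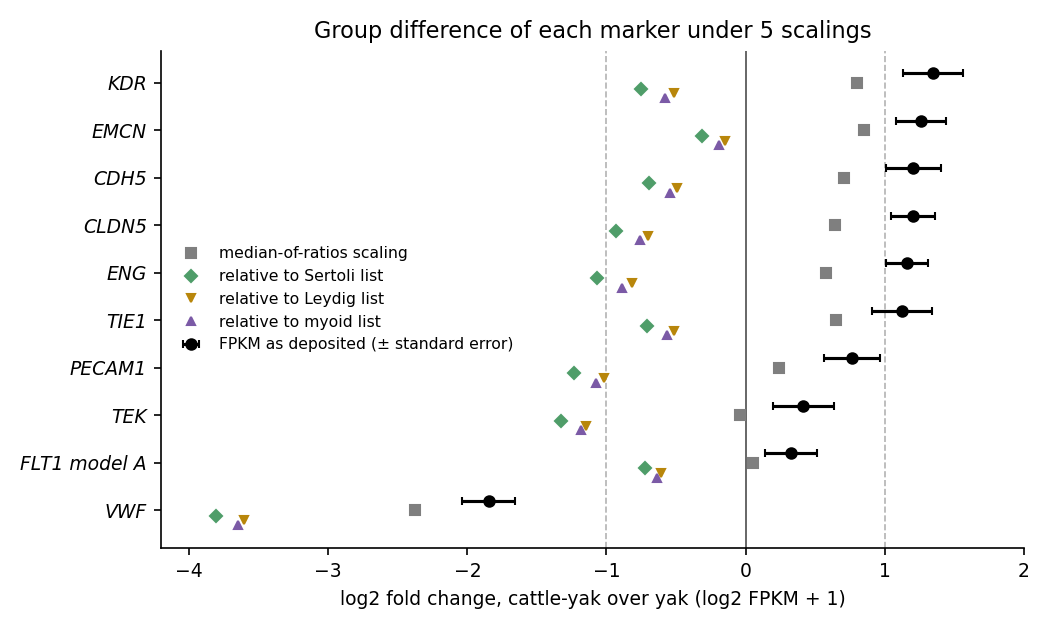
log2 (foldchange) of the 10 tested members, cattle-yak over yak, with the standard error for the FPKM as deposited (black) and the same value under median-of-ratios scaling and relative to the Sertoli, Leydig and myoid lists. Dashed lines mark the threshold of 1 in either direction. VWF lies below −1 in all of them, and the 9 other members lie above 0 as deposited and below 0 relative to each somatic list.

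Beside the members, 11 lists of vascular genes held 95 rows, of which 89 were tested, 44 called higher and 5 lower in cattle-yak, beside 33.4% and 20.8% of all genes. Which cells of the bulk tissue carried these genes, whether called higher or lower, was not tested, so the counts are not specific to vessels. With median-of-ratios scaling 21 were called higher and 8 lower, beside 17.7% and 27.7% of all genes. Relative to the Sertoli list the medians of these lists ran from −1.58 to −0.11, and of the genes called higher only VEGFA, ANGPT4, PLAT, EDN1, EFNB2, NOTCH1, CCL21 and LYVE1 then stayed above 0. Among the ligands and receptors of VEGF, 6 of 7 rows were called higher, with a median log2 (foldchange) of 1.32. VEGFA, the main ligand of KDR, averaged 10.9 ± 3.45 FPKM in cattle-yak against 1.53 ± 0.528 in yak (SD, n = 3), and VEGFC, a lymphatic growth factor, 35.9 ± 3.63 against 7.85 ± 1.73. Their log2 (foldchange) values were 2.22 and 2.07, those of VEGFB, the neuropilin NRP2 and the lymphatic receptor FLT4 1.66, 1.32 and 1.19, and that of VEGFD 1.002, just past the threshold. With median-of-ratios scaling VEGFA, VEGFC and VEGFB remained above 1 and the other called genes of this list did not. PGF, a ligand of FLT1, had a value of 0.78 and was not called. The ratio of VEGFA to KDR was 0.575, 0.864 and 0.900 in cattle-yak and 0.336, 0.399 and 0.211 in yak (p = 0.1, exact permutation test, two-sided).

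The ligands of TEK differed in direction. ANGPT2, which is released from Weibel-Palade bodies and can antagonise TEK, had 5.38, 7.06 and 3.88 FPKM in cattle-yak and 1.88, 0.97 and 1.95 in yak, with a log2 (foldchange) of 1.30 ± 0.24 (adjusted p = 1.0e-03) that was 0.85 with median-of-ratios scaling. ANGPT1, the agonist made by perivascular cells, had 1.18, 1.21 and 1.12 FPKM in cattle-yak and 1.88, 1.96 and 1.69 in yak, and its log2 (foldchange) of −0.39 ± 0.14 (adjusted p = 0.032) fell short of the threshold. The ratio of ANGPT2 to ANGPT1 was 4.56, 5.84 and 3.45 in cattle-yak and 1.001, 0.495 and 1.16 in yak, higher in all 3 cattle-yak libraries (p = 0.1, exact permutation test, two-sided). ANGPT4 was also called higher (2.17, and 1.70 with median-of-ratios scaling), and PTPRB, the endothelial phosphatase that acts on TEK and CDH5, was not called (0.73).

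Around ENG, the BMP receptor ACVRL1 averaged 14.0 ± 2.67 FPKM in cattle-yak against 5.74 ± 0.672 in yak (SD, n = 3), and it was called higher with BMPR2, SMAD1 and SMAD5, at log2 (foldchange) values of 1.14, 1.01, 1.33 and 1.45. None of these passed 1 with median-of-ratios scaling. The target genes of this pathway were not called, with 0.80 for ID3, 0.45 for SMAD6 and −0.24 for ID1, and the ligand GDF2 was under the minimum for the test. In this list 4 of 7 tested rows were called higher.

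Genes of Weibel-Palade bodies and haemostasis differed in direction too. SELP, the P-selectin that is stored with VWF in endothelium and in platelets, had 1.37, 0.72 and 0.33 FPKM in cattle-yak and 9.87, 10.8 and 8.25 in yak. As with VWF, every yak value was above every cattle-yak value and TES5 was the highest cattle-yak library. The groups did not overlap in 84.1% of all genes tested either. The log2 (foldchange) of SELP was −2.59 ± 0.23 (adjusted p = 1.3e-05). The ratio of VWF to SELP was 3.41, 5.45 and 7.45 in cattle-yak and 1.63, 1.44 and 1.83 in yak (p = 0.1, exact permutation test, two-sided). Called higher were PLAT (2.95), the tissue plasminogen activator, THBD (1.95), the thrombin receptor thrombomodulin, MMRN1 (1.64), EDN1 (1.45), the vasoconstrictor endothelin 1, and clotting factor F8 (1.34). ADAMTS13, the protease that cleaves VWF, PROCR, VCAM1 and TFPI had values of 0.72, 0.50, 0.38 and 0.29 and were not called, and SELE was under the minimum for the test. Of the 10 tested rows of this list 5 were called higher and 1 lower.

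Platelets also carry VWF, SELP and PECAM1. Of 9 platelet symbols 5 were matched, SELP itself among them, and PF4 and TREML1, which define platelets, were at 0 to 0.15 FPKM in every library. ITGA2B, an integrin of platelets, averaged 8.59 ± 1.15 FPKM in cattle-yak against 12.8 ± 0.557 in yak (SD, n = 3) and was not called (−0.53, adjusted p = 5.7e-03 from limma). With median-of-ratios scaling ITGA2B was called lower (−1.09), beside 27.7% of all genes. Without SELP the other 4 rows of the list summed to 7.33 to 9.68 FPKM in cattle-yak, against 12.2 to 13.5 in yak, and with it to 7.66 to 10.4 against 21.3 to 23.4. Of 9 red cell symbols 4 were matched, with sums of 3.16 to 3.49 FPKM in cattle-yak, against 4.16 to 8.32 in yak. HBA, an alpha globin, was at 0.14 to 0.67 FPKM and ALAS2 and SLC4A1 at 0 to 0.06. AHSP, the chaperone of alpha globin, carried most of that sum, with 2.83 ± 0.267 FPKM in cattle-yak against 6.07 ± 2.30 in yak (SD, n = 3), and was not called (−0.83, adjusted p = 0.016 from limma). With median-of-ratios scaling AHSP was called lower too (−1.31). Of 13 tested rows of the leukocyte and macrophage list 7 were called higher and 3 lower (AIF1, CD14 and CD79A, named after their values were seen), with sums of 154 to 221 FPKM in cattle-yak, against 125 to 172 in yak. The part of these cells in the results of VWF, SELP and PECAM1 was not tested.

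Among further endothelial genes 5 of 17 tested rows were called higher and 1 lower, with a median of 0.81, beside 33.4% and 20.8% of all genes. With median-of-ratios scaling 3 were called higher and 1 lower, beside 17.7% and 27.7% of all genes. RAMP2, the partner of the adrenomedullin receptor, had the largest log2 (foldchange) at 2.27, averaging 178 ± 45.4 FPKM in cattle-yak against 35.3 ± 3.62 in yak (SD, n = 3), followed by the surface glycoprotein CD34 with 1.79. The more abundant of 2 rows with the symbol ICAM2, a leukocyte adhesion molecule, was called lower at −1.81, averaging 1.77 ± 0.397 FPKM in cattle-yak against 9.34 ± 4.65 in yak, and as a symbol on 2 rows it is uncertain. PODXL, with 0.07, did not pass the test.

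The transcription factors of endothelium had a median of 0.11, the lowest of the 11 vascular lists and below the 0.51 of all genes tested, with 4 of 13 rows called higher and 2 lower, beside 33.4% and 20.8% of all genes. With median-of-ratios scaling the median was −0.23, 3 rows were called lower and none was above 1. ETS1 and ERG, ETS factors of endothelial genes, were called higher at 1.41 and 1.22. KLF4 (−2.54) and MECOM (−2.76) were called lower, KLF4 averaging 13.0 ± 1.12 FPKM in cattle-yak against 80.2 ± 3.19 in yak (SD, n = 3), and MECOM 1.51 ± 0.367 against 15.9 ± 0.658. Both factors are expressed outside endothelium as well.

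For the types of vessel, 5 of 9 tested arterial and Notch rows were called higher, 3 of them also with median-of-ratios scaling, with a median of 1.09. Among all genes 33.4% were called higher and 20.8% lower, and with median-of-ratios scaling 17.7% higher and 27.7% lower. EFNB2, the arterial ephrin, and the receptor NOTCH1 had the largest values, 2.30 and 2.24, while NOTCH4 had −0.66 (adjusted p = 4.4e-03 from limma) and HEY1 −0.10, neither of them past the threshold. With median-of-ratios scaling NOTCH4 was called lower (−1.11). Of 3 venous genes NR2F2 was called higher (1.86), and EPHB4 (0.99) and ACKR1 (−0.91) were not called. With median-of-ratios scaling NR2F2 was still called higher (1.28), and ACKR1 was called lower (−1.11). Of 4 tested lymphatic genes the chemokine CCL21 (2.46) and the hyaluronan receptor LYVE1 (1.74) were called higher. PROX1, the master factor of lymphatic fate, was called lower (−2.71), at 1.204 ± 0.175 FPKM in cattle-yak against 13.5 ± 2.47 in yak (SD, n = 3), and RELN was not called (−0.10). In the pericyte list 5 of 8 tested rows were called higher, 1 of them (PDGFRB) also with median-of-ratios scaling, with a median of 1.06, PDGFRB (1.56) and RGS5 (1.42) at the top and PDGFB (0.25) and CSPG4 (0.78), the latter a symbol on 2 rows, at the bottom. For the junction partners 5 of 7 rows were called higher, 3 of them also with median-of-ratios scaling, led by JAM2 (2.30) and JUP (1.75), with CTNND1 (0.66) and CTNNB1 (0.95) lowest and not called. The plot of the lists sets these values beside the somatic lists.

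**Figure D4:**
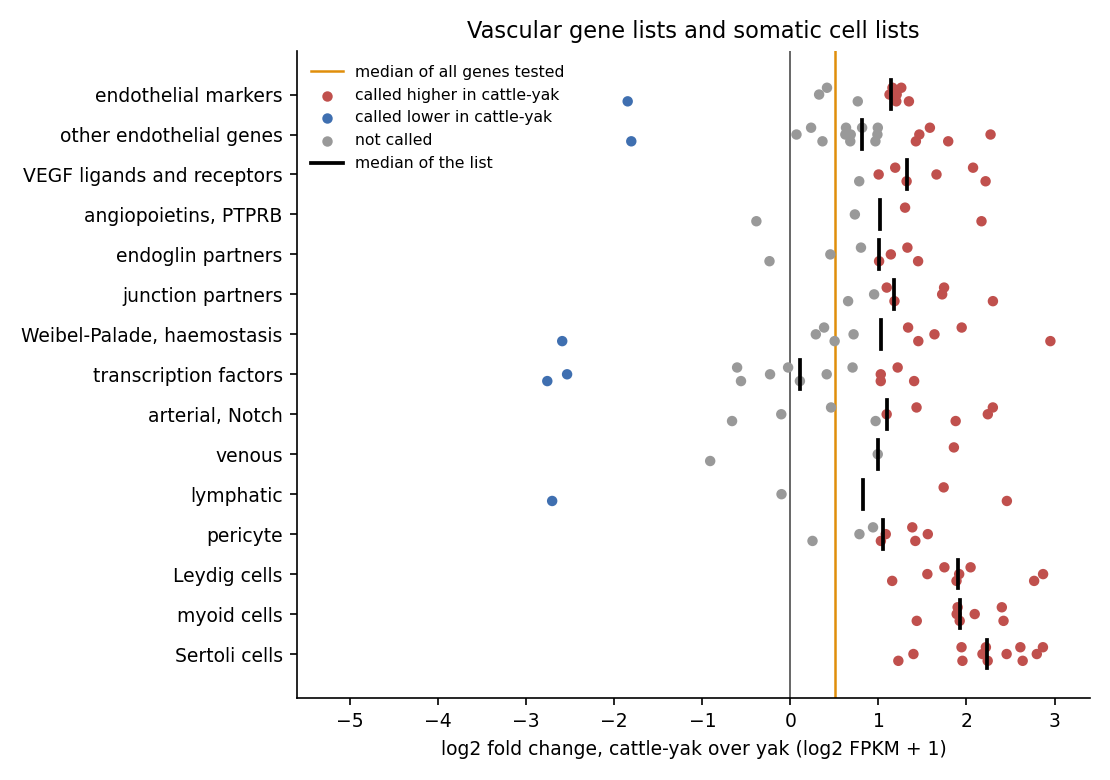
log2 (foldchange), cattle-yak over yak, of every tested gene of the endothelial markers, the 11 vascular lists and the Leydig, myoid and Sertoli lists, in red where called higher, blue where called lower and grey where not called, with a black bar at the median of a list and an orange line at the median of all genes tested (0.51). The Sertoli, Leydig and myoid medians (2.23, 1.90 and 1.92) lie to the right of the medians of the vascular lists, which run from 0.11 to 1.32.

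The annotation deposited with the values describes what the members share beyond their use as markers. The GO term angiogenesis stood on 6 of the 11 rows (KDR, TEK, TIE1, ENG and both FLT1 models), and on 1.002% of all annotated rows. Of the 135 tested genes with that term 64 were called higher and 10 lower, with a median log2 (foldchange) of 0.97. The GO term transmembrane receptor protein tyrosine kinase activity stood on the 5 receptor kinase rows of the members, and of its 29 tested genes 17 were called higher, members included. PECAM1, CDH5 and CLDN5 shared the KEGG pathway leukocyte transendothelial migration, with 41 of 93 tested genes called higher and 7 lower. VWF shared the KEGG pathway focal adhesion with KDR and both FLT1 models, and of 177 tested genes in it 88 were called higher and 19 lower. All these counts stand beside 33.4% called higher and 20.8% lower among all genes tested, with a median of 0.51. Counts for these terms under other scalings were not computed, and no enrichment was tested.

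The genes whose values followed a member most closely over the 6 libraries were sought among 10555 genes with a symbol and a mean FPKM of at least 5, by the Euclidean distance of centred log2 (FPKM + 1) values. This distance includes the difference between the groups, so genes with a like log2 (foldchange) lie near by construction. The distances were not tested. For VWF the nearest genes were Mapk8ip1, CCDC130 and KLHDC2, at distances of 0.21, 0.23 and 0.24, with log2 (foldchange) values of −1.77, −1.74 and −1.89. For PECAM1 they were VAMP1, CALCRL and HSD3B7, at distances of 0.22, 0.24 and 0.26. CALCRL, the adrenomedullin receptor that works with RAMP2, belongs to the list of further endothelial genes, was not called (0.81) and had 8.84, 9.10 and 5.37 FPKM in cattle-yak and 3.91, 3.95 and 3.79 in yak.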

How the data were processed

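Testis RNA of 3 cattle-yak and 3 yak was measured by paired-end RNA-seq with a stranded mRNA kit. According to the labels and methods, the authors used Trimmomatic for trimming, HISAT2 for mapping to the genome of the yak, and Cufflinks for FPKM. The deposited FPKM values are scaled to length and depth within a library, not between libraries.

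Since 1 fragment is worth a fixed FPKM for each gene and library, the low values gave back the fragments, gene lengths and depth (17973 genes, 100% of values within 0.03 of a whole number), a step checked on simulated data. A minimum of 0.5 was set on the mean FPKM over the libraries. The 15042 genes left were tested with limma (version 3.58.1, R 4.3.3) on log2 (FPKM + 1), two-sided, with a variance trend and Benjamini-Hochberg adjustment over all of them, and called at an adjusted p under 0.05 and a log2 (foldchange) beyond 1. In simulated libraries, 194 of 200 genes changed 4-fold among 15042 were called. These libraries held no smaller changes and no shift shared by most genes, so they do not test the choice of scaling. Fold changes on the log2 (FPKM + 1) scale understate those of low genes. Values of 1 quantity per library were compared with exact permutation tests (scipy 1.17.1). Alternatives were other pseudocounts, filters, scalings and models, voom in limma on the recovered fragments, and leaving out each library.

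Members and lists were chosen with earlier results of these data known. Named beside the members are the ligands, partners and haemostasis genes listed, vascular genes called lower, the 2 largest and 2 smallest values of each other vascular list, and the 3 genes nearest to VWF and to PECAM1. Sequences and coordinates were not used here.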

Additional observations from a re-analysis of the deposited data

How the results depend on the processing

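Of the member values under other pseudocounts, filters and models, none changed direction. Calls higher numbered 6 of 10 as reported, 3 of 5 tested with a minimum mean FPKM of 5, where fewer genes were tested, and 0 with median-of-ratios, Sertoli, Leydig or myoid scaling. Calls lower numbered 1 as reported and 4, 3 and 3 with Sertoli, Leydig and myoid scaling. The median log2 (foldchange) of the members was 0.61 with median-of-ratios scaling and −0.84, −0.65 and −0.70 relative to the Sertoli, Leydig and myoid lists. The log2 ratio of their summed FPKM was 0.81 as reported and −1.55, −1.33 and −1.37 relative to these lists. With median-of-ratios scaling TEK was at −0.042. Relative to the Sertoli list the values were −1.23 for PECAM1, −0.70 for CDH5, −0.75 for KDR, −1.33 for TEK, −0.71 for TIE1, −0.72 for FLT1 model A, −1.06 for ENG, −0.31 for EMCN and −0.93 for CLDN5. Relative to the Leydig list they were −1.02, −0.49, −0.52, −1.15, −0.52, −0.61, −0.82, −0.15 and −0.70 in the same order, and relative to the myoid list −1.07, −0.54, −0.58, −1.19, −0.56, −0.63, −0.89, −0.19 and −0.76. These scalings differ from the values as reported only in the factor of each library. With each library left out, 5 to 6 members were called higher, 1 lower, and the median ran from 0.997 to 1.26, and the log2 ratio of the summed FPKM from 0.68 to 0.95. The median of all genes tested ran from 0.49 to 0.52 in the same fits. For these fits and for the minimum mean FPKM of 5 the share of all genes called was not computed. No paired analysis was possible because the groups are different animals and their labels share no replicate numbers. FLT1 model B, with 12 to 31 fragments, was too low for a comparison at this depth.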
